A study of Mus musculus with 14 samples.

Results

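The proteasome genes were followed in freshly sorted mouse liver sinusoidal endothelial cells (LSECs) after acute liver injury. All protein-coding genes whose symbol starts with Psma, Psmb, Psmc, Psmd or Psme followed by a digit in the GENCODE vM21 annotation were taken. This gave 45 of the 54524 genes in the count table, and all 45 passed the filter on low counts. They comprise 7 subunits of the alpha ring and 7 of the beta ring of the 20S core, 3 immunoproteasome subunits, 2 core subunits known from germ line or thymus, 6 ATPases and 11 other subunits of the 19S cap, 3 chaperones that assist assembly of the cap, and 5 genes of activators. The last gene, Psmc3ip, carries the symbol of a 19S ATPase but encodes a protein that binds it and is known for meiotic recombination, which leaves 44 genes of the proteasome itself.

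The proteasome is the protease that degrades most proteins marked with ubiquitin. Its barrel-shaped 20S core has outer rings of alpha subunits that gate the entry and inner rings of beta subunits, of which Psmb6 (beta1), Psmb7 (beta2) and Psmb5 (beta5) carry the active sites. In cells exposed to interferon these can be replaced in new particles by Psmb9 (beta1i), Psmb10 (beta2i) and Psmb8 (beta5i), which form the immunoproteasome and favour peptides that fit MHC class I. The 19S cap binds ubiquitin chains, removes them and unfolds the substrate with its ATPase ring, whereas the activators encoded by Psme1 to Psme4 open the core without ubiquitin. LSECs line the liver sinusoids, clear proteins from the blood by endocytosis and can present antigen.

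LSECs came from male Balb/c mice aged 10 to 12 weeks according to the labels, while the methods of the study give a somewhat older range. Healthy mice (n = 4) received no injection, and the other mice were killed 1 day (n = 2), 3 days (n = 4) or 7 days (n = 4) after a single intraperitoneal injection of carbon tetrachloride (CCl4, 0.5 µL per g of body weight in mineral oil), a solvent that kills hepatocytes. Since the healthy mice received no oil, oil and CCl4 cannot be told apart. According to the methods of the study, further samples taken at day 1 failed the quality standard for RNA and were left out. Cells were sorted as CD32 positive, F4/80 negative and negative for autofluorescence and propidium iodide, and according to the methods also CD45 negative. CD32 is encoded by Fcgr2b, so the gate rests on a gene that is itself an LSEC marker.

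Total counts ran from 46401496 to 103912264 per sample. All 8 LSEC markers checked (Stab1, Stab2, Lyve1, Clec4g, Fcgr2b, Oit3, Kdr and Pecam1) were expressed in every sample, with a summed level of 14370 to 18130 CPM (counts scaled to the library size) in healthy mice and 8471 to 13520 CPM in treated mice. The LSEC markers did not move together. Clec4g, Oit3 and Kdr were below their healthy ranges in every treated mouse, and Fcgr2b in all but day 7 mouse 1. Lyve1 was higher at day 1, at 3020 and 3396 CPM against 271 to 534 CPM in healthy mice. Stab1, Stab2 and Pecam1 overlapped their healthy ranges. Several samples stood apart. Healthy mouse 4 held 8693 CPM of 8 hepatocyte transcripts against 209.5 to 399 CPM in the other healthy mice. Healthy mouse 1 held 124 CPM of 5 Kupffer cell transcripts against 790.5 to 1035 CPM in the other healthy mice. The 8 markers of monocytes and neutrophils summed to 544 to 1475 CPM in healthy mice, 8000 and 4254 CPM at day 1, 12600, 7769, 1512 and 1400 CPM at day 3, and 4258 to 9723 CPM at day 7, where Lyz2 gave most of the sum. None of these 8 markers was at 0 in any sample. The day 3 mice also differed in the number of genes with a count, with 34678 and 34768 genes in mice 1 and 2 against 28203 and 22986 in mice 3 and 4. Whether a lower level of a marker reflects fewer cells of a type or less of its RNA per cell cannot be told apart in such bulk samples.

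The stretches of sequence before the start of transcription that follow belong to genes on which the results below turn: the standard active-site subunits Psmb5 and Psmb6, the immunoproteasome subunit Psmb10, and the 19S genes Psmc4 and Psmd14, which were high at day 1 and low at day 7. They are taken from RefSeq promoters on GRCm38.p6, which held 38 of the 45 genes (Psma8, Psmb1, Psmb2, Psmb7, Psmc3, Psmd3 and Psmd7 had no entry), and are limited to bases that lie before every GENCODE exon. Capitals mark the core of the antioxidant response element (TGACNNNGC), known as a binding site of Nrf1 and Nrf2, the CCAAT box (CCAAT) and the GC box (GGGCGG), on either strand. The core of the interferon response element (GAAANNGAA) was searched as well, and none of the marked matches overlap each other.
Psmb5, chr14:54618023-54618245, minus strand: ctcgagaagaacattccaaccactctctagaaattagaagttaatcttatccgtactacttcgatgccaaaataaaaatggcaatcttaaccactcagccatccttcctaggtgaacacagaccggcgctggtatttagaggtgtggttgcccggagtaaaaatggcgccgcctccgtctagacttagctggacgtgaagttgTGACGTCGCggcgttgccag
Psmb6, chr11:70525107-70525356, plus strand: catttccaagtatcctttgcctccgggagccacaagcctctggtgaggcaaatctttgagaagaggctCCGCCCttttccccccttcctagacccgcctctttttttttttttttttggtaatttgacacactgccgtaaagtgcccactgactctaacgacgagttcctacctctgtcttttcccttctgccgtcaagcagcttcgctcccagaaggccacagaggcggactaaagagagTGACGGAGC
Psmb10, chr8:105938445-105938642, minus strand: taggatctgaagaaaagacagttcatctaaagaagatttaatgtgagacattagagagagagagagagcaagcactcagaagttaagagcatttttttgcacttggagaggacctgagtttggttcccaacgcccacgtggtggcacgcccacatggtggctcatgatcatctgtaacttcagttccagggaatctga
Psmc4, chr7:28050102-28050342, minus strand: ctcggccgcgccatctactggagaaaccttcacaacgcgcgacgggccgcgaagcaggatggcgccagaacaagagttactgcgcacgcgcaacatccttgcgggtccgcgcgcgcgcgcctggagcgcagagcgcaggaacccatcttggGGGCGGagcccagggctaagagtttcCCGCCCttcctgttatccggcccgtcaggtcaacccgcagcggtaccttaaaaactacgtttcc
Psmd14, chr2:61711444-61711693, plus strand: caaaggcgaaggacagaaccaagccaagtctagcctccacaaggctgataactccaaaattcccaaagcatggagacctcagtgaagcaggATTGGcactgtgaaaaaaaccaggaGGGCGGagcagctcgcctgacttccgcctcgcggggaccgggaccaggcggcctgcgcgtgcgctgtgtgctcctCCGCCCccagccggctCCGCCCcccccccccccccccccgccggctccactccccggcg

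In these windows Psmb5 and Psmb6 each held an antioxidant response core, 47 and 9 bases before the start, Psmb6 also a GC box, Psmc4 a pair of GC boxes and Psmd14 a CCAAT box and 3 GC boxes, whereas Psmb10 held none of the 4 motifs. Over the 250 bases before the start, 5 of 38 proteasome genes held the antioxidant response core (13.2%, against 10.1% of 27025 promoters of all genes), namely Psmb5, Psmb6, Psmc6, Psmd9 and Psmd12. A CCAAT box was found in 39.5% of them (34.5% of all promoters), the interferon response core in 7.89% (7.16% of all promoters; Psmb3, Psmd4 and Psmd9), and a GC box in 55.3% (32.9% of all promoters). Of these motifs, the GC box differed most in share from all promoters. A match describes letters in a window and not a bound site.

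First, LSECs at day 1 were compared with healthy LSECs. Most subunits of the constitutive proteasome were higher in both day 1 mice than in any healthy mouse, while the immunoproteasome subunits were not. This held for 12 of the 14 core subunits, 16 of the 17 subunits of the 19S cap and 30 of all 45 genes, where 20.0% of all tested genes had both day 1 mice above all healthy mice. The median log2 fold change was 0.54 over the 45 genes (1.45-fold) and -0.03 over all 26626 tested genes. The summed level of the 14 core subunits was 3752 and 3640.0 CPM at day 1 against 2141 to 3179 CPM in healthy mice, and that of the 17 cap subunits was 3348 and 3247 CPM against 2131 to 2367 CPM.

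None of the higher levels passed the test at day 1. By the edgeR quasi-likelihood test, adjusted over all tested genes, 0 of 45 genes were called higher (2.42% of all tested genes were) and 1 was called lower (1.64% of all tested genes were), which was Psmb9. At an unadjusted p under 0.05, 12 were higher and 1 was lower, where 17.9% of all tested genes passed in either direction. DESeq2 called 4 higher and 1 lower (4.58% and 6.08% of all tested genes). Limma called 22 higher and 2 lower (9.45% and 6.73% of all tested genes). With all day 3 samples left out edgeR called 13 higher and 2 lower (5.95% and 4.55% of all tested genes). The call of Psmb9 was lost without healthy mouse 1 (adjusted p = 0.0562, edgeR) and without day 1 mouse 1 (adjusted p = 0.309) or mouse 2 (adjusted p = 0.0736). Leaving out day 3 mouse 1, 2 or 4 gave 2, 2 and 5 calls (4.30%, 4.33% and 6.98% of all tested genes called in either direction). In both day 1 mice the monocyte and neutrophil markers were above the healthy range, as given above. Hepatocyte markers (29.4 and 128 CPM) and stellate cell markers (109 and 97.0 CPM) were below the healthy ranges of 209.5 to 8693 CPM and 126 to 241 CPM. Dcn gave most of the stellate cell sum, at 74.3 and 71.4 CPM against 101 to 199.8 CPM in healthy mice. Reln and Pdgfrb were also below their own healthy ranges, while Lrat, Des, Rgs5 and Col1a1 overlapped theirs. Acta2 went the other way, at 18.1 and 11.2 CPM against 5.28 to 9.64 CPM. The part of these cell type markers in the differences at day 1 was not tested.

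Next, LSECs at day 3 did not form a uniform group. In mice 1 and 2, 13 of the 14 core subunits exceeded the level of every healthy mouse. In mouse 3 only 1 did, and in mouse 4 all 14 were below every healthy mouse. Over all 45 genes, 34, 32, 8 and 5 genes in mice 1 to 4 lay above the healthy range and 5, 6, 9 and 37 lay below it. For comparison, 40.7%, 40.4%, 29.2% and 29.7% of all tested genes lay above the range in these mice and 26.8%, 26.0%, 24.1% and 35.6% below it. Mice 1 and 2 were also those with monocyte and neutrophil markers at 12600 and 7769 CPM and with more genes detected. Stellate cell markers were at 423 to 1250 CPM in all 4 day 3 mice, above the healthy range of 126 to 241 CPM, and hepatocyte markers, at 1057 to 3399 CPM, were above 3 of the 4 healthy mice. The part of these in the levels at day 3, those of Psmd5 and Psmc3ip included, was not tested.

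The median log2 fold change of the 45 genes from healthy to day 3 was 0.17, against 0.18 over all tested genes. It changed sign, to -0.37, without mice 1 and 2, and was -0.07 without mouse 1 and -0.04 without healthy mouse 4. A single gene was called higher, Psmc3ip (4.62% of all tested genes were), and a single gene lower, Psmd5 (2.58% of all tested genes were). Both calls depended on single samples. That of Psmc3ip was lost without any 1 of the 4 healthy mice, without either day 1 mouse, without day 3 mouse 1, 3 or 4 and without day 7 mouse 1, 3 or 4 (adjusted p from 0.052 to 0.107, edgeR), and that of Psmd5 without any healthy mouse or without day 3 mouse 2 (adjusted p from 0.0534 to 0.0969). With day 3 mice 3 and 4 left out, 14 genes were called higher and 5 lower (10.9% and 12.8% of all tested genes). Limma called 17 higher and 5 lower (15.9% and 11.4% of all tested genes). In both fits the 5 lower genes of 45 were near the share of all genes.

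At day 7 the levels were low in every mouse, in a comparison that uses the same healthy mice as those of day 1 and day 3. In all 4 mice 33 of the 45 genes lay below all 4 healthy mice, including 13 of the 14 core subunits and 15 of the 17 cap subunits, where 12.1% of all tested genes had all day 7 mice below all healthy mice. The median log2 fold change was -0.57 over the 45 genes (0.674-fold) and 0.02 over all tested genes. The core subunits summed to 1784, 1659, 1624 and 1589 CPM and the cap subunits to 1894, 1490, 1361 and 1481 CPM, both below every healthy mouse. The alpha ring had the lowest median of the larger classes (-0.71), followed by the beta ring and the ATPases (both -0.59) and the other cap subunits (-0.56).

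None of the 45 genes passed the edgeR test at day 7 against healthy LSECs. In edgeR 0.992% of all tested genes were called lower, and the smallest adjusted p of the 45 was that of Psmd1 (0.0503). At an unadjusted p under 0.05, 23 were lower and 0 higher, where 21.1% of all tested genes passed in either direction. DESeq2 called 7 lower (3.74% of all tested genes), and limma called 39 lower and 1 higher (13.0% and 13.5% of all tested genes). EdgeR called 29 lower when fitted to the healthy and day 7 mice alone (7.90% of the genes tested there) and 33 lower with all day 3 samples left out (8.75% of the genes tested there). Leaving out day 3 mouse 4 alone gave 14 lower (3.61% of all tested genes) and leaving out day 7 mouse 1 gave 11 (2.45% of all tested genes). In all 4 day 7 mice the summed monocyte and neutrophil markers were above the healthy range, mostly through Lyz2. Ccr2, Csf3r, Itgam and Ptprc were above their own healthy ranges as well. Ly6c2, at 7.56 to 19.65 CPM, stayed within its healthy range of 3.22 to 26.79 CPM, and S100a8 and S100a9 overlapped theirs. Stellate cell markers were above the healthy range in 3 of the 4 day 7 mice, at 911 to 3324 CPM against 126 to 241 CPM in healthy mice. Hepatocyte markers, at 788 to 5957 CPM, were above 3 of the 4 healthy mice. Mitochondrial genes took 5.28% to 9.87% of the counts in the day 7 mice against 3.04% to 3.65% in the healthy mice, without overlap. The part of these in the lower levels was not tested.

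Day 7 was also compared with day 1, where healthy mice enter neither group mean but still shape the filter, scaling and spread of the fit. Here 23 of the 45 genes were called lower and 0 higher by edgeR, against 4.40% of all tested genes called lower. In 39 genes all 4 day 7 mice were below both day 1 mice (23.1% of all tested genes), and the median log2 fold change was -1.07. The called genes included all 6 ATPases, 9 of the 11 other cap subunits, 6 of the 14 core subunits, the activator Psme3 and Psma8. The count depended on single samples. Without day 7 mouse 2, 3 or 4 it was 14, 12 and 13. The share of all tested genes called in either direction was 4.63%, 4.02% and 4.19% there, against 8.04% with all mice. Leaving out either day 1 mouse left 1 mouse in that group, and most calls were lost, among the 45 genes and among all genes. The median stayed between -1.09 and -0.94 whichever sample was left out.

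Between the remaining pairs of groups few genes were called. From day 1 to day 3 only Psmb9 was called higher (1.57% of all tested genes were) and none lower. There were 2 calls without healthy mouse 4 and 4 without day 7 mouse 1 (3.52% and 2.95% of all tested genes called in either direction). From day 3 to day 7, 4 genes were called lower (1.36% of all tested genes were), namely Psmd1, Psmd14, Psmc4 and Psmc3ip. This last count was 29 without day 3 mouse 4 (4.56% of all tested genes were called lower there) and 0 to 2 without any other sample. The plot of log2 fold changes by class shows the constitutive classes to the right of 0 at day 1 and to the left at day 7, and the immunoproteasome on the other side at day 1.

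**Figure D1:**
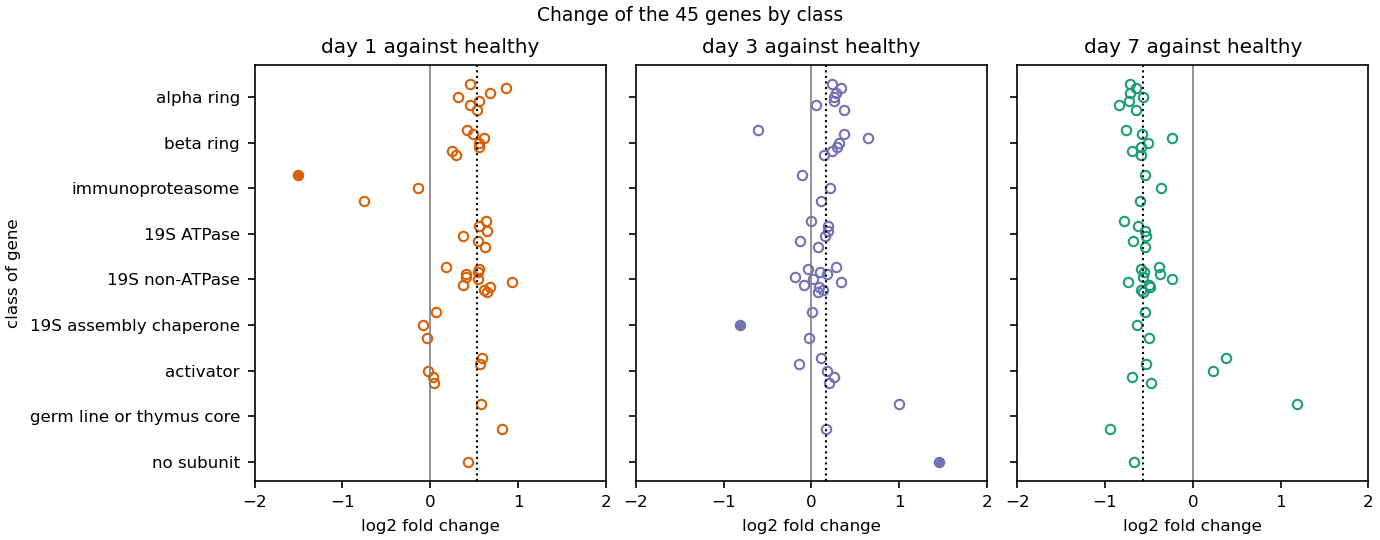
Log2 fold change of each of the 45 genes (x axis) by class (y axis) at day 1, day 3 and day 7 against healthy LSECs. Circles are genes, filled circles have an edgeR adjusted p under 0.05, the grey line marks 0 and the dotted line the median of the 45 genes (0.54, 0.17 and -0.57).

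**Figure D2:**
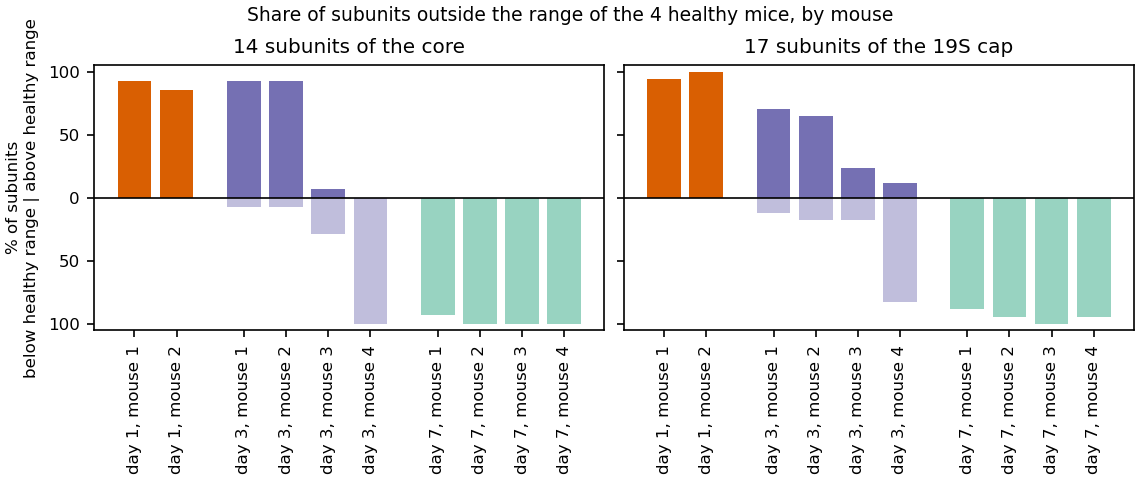
Percentage of the 14 core subunits (left) and the 17 cap subunits (right) that lay above (upward bars) or below (downward, paler bars) the levels of all 4 healthy mice, for each treated mouse. Day 1 mice have bars upward, day 7 mice have bars downward, and the day 3 mice range from 92.9% of core subunits above in mice 1 and 2 to all 14 below in mouse 4.

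The active-site subunits were then examined in turn. Psmb6, the caspase-like subunit, was at 275, 223, 225 and 186 CPM in the healthy mice, 320.4 and 316 at day 1, 406, 423, 219 and 127 at day 3, and 156, 158, 151 and 142 at day 7. Psmb5, the chymotrypsin-like subunit, was at 68.9, 60.5, 62.2 and 56.8 CPM in the healthy mice, 91 and 98.4 at day 1, 131, 124, 84 and 48.8 at day 3, and 56.8, 53.6, 47.4 and 53.2 at day 7. Both day 1 mice exceeded all healthy mice for each of these genes, and the day 7 mice were all below them for Psmb6 while Psmb5 overlapped because day 7 mouse 1 reached the lowest healthy mouse. Up to 36.8% of the 75-base stretches of Psmb5 also occur in other genes, mainly a pseudogene, so its counts are less certain.

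Psmb7, the trypsin-like subunit, departed from its partners at day 3. It was at 66.3, 55.3, 61.7 and 45.7 CPM in the healthy mice, 86.9 and 66.9 at day 1, 34.8, 26.4, 53.4 and 35.1 at day 3, and 25.6, 37.7, 33.3 and 38.3 at day 7. In day 3 mice 1 and 2, where the other core subunits were high, Psmb7 was below the healthy range, as it was in mouse 4, and all day 7 mice were below all healthy mice. From day 1 to day 7 Psmb7 fell (log2 fold change -1.19, SE 0.26, adjusted p = 0.0164, edgeR quasi-likelihood test), a call lost without either day 1 mouse (adjusted p = 0.313 and 0.0938) or day 7 mouse 3 (0.0589). The differences from day 1 to day 3 (log2 fold change -1.04, SE 0.26, adjusted p = 0.0551) and from healthy to day 7 (log2 fold change -0.76, SE 0.22, adjusted p = 0.0769) did not pass the edgeR test. Exons of Psmb7 share 11.8% of their bases with Nek6 on the opposite strand, and whether counting used the strand is not stated.

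The immunoproteasome subunits took another course at day 1. Psmb9 (beta1i) was at 100.4, 78.3, 84.9 and 68.8 CPM in the healthy mice, 25.5 and 33.3 at day 1, 117, 75.5, 74 and 42.5 at day 3, and 66, 48.5, 63.4 and 50.2 at day 7. It was the only proteasome gene that fell from healthy to day 1 in edgeR (log2 fold change -1.50, SE 0.34, adjusted p = 0.0223), to 0.354-fold of its healthy level, and both day 1 mice were below every other sample. It rose again from day 1 to day 3 (log2 fold change 1.40, SE 0.33, adjusted p = 0.0439, edgeR quasi-likelihood test), although this call was lost without healthy mouse 1, 2 or 3, either day 1 mouse, day 3 mouse 1, 2 or 3, or day 7 mouse 2, 3 or 4 (adjusted p from 0.0533 to 0.486). Psmb9 lies head to head with the peptide transporter gene Tap1, and 5.79% of its exonic bases overlap it.

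Psmb10 (beta2i) was at 167, 149, 166 and 110.5 CPM in the healthy mice, 75.7 and 101 at day 1, 244, 203, 114 and 78.6 at day 3, and 114, 86.8, 95.7 and 94 at day 7. Both day 1 mice lay below all healthy mice, yet the difference did not pass the edgeR test (log2 fold change -0.75, SE 0.37, adjusted p = 0.318). It passed with limma (adjusted p = 0.0127) and in edgeR with all day 3 samples left out (adjusted p = 0.0452). Psmb8 (beta5i) was at 166, 151, 172 and 108 CPM in the healthy mice, 124 and 148 at day 1, 294, 184, 119.7 and 92.3 at day 3, and 114, 113, 116 and 119.8 at day 7. Its day 1 mice fell within the healthy range, and at day 3 mice 1 and 2 were above and mouse 4 below all healthy mice. At 14.7% of exonic bases Psmb8 overlaps a gene on the opposite strand.

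**Figure D3:**
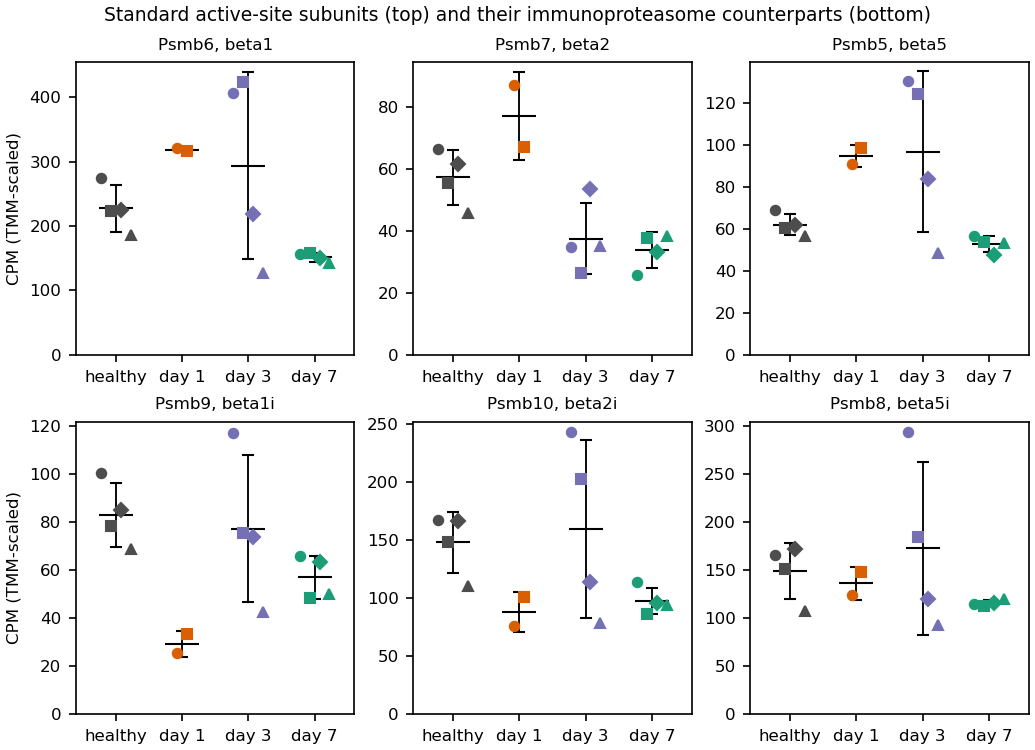
CPM (y axis, TMM-scaled) of the 3 standard active-site subunits (top) and their immunoproteasome counterparts (bottom) in each mouse by group (x axis). Symbols are mice, with circle, square, diamond and triangle for mice 1 to 4, and horizontal bars with whiskers are mean and SD. The day 1 mice lie above the healthy mice for Psmb6, Psmb7 and Psmb5, and below them for Psmb9 and Psmb10.

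To set each immunoproteasome subunit against the subunit it replaces, CPM was divided by exonic length in kb and the ratio taken within each mouse. The ratio of Psmb9 to Psmb6 was 0.187, 0.179, 0.193 and 0.189 in the healthy mice, 0.0407 and 0.0537 at day 1, 0.148, 0.0913, 0.173 and 0.171 at day 3, and 0.216, 0.157, 0.215 and 0.181 at day 7. In healthy LSECs it was 0.187 ± 0.0056 (SD, n = 4) and at day 1 0.0472 ± 0.0092 (SD, n = 2), 0.253 of the healthy value, with both day 1 mice below all other mice. At day 3 all 4 mice were below all healthy mice, and at day 7 the groups overlapped. The ratio of Psmb8 to Psmb5 was 0.636 ± 0.096 in healthy mice and 0.381 ± 0.028 at day 1, again without overlap.

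The ratio of Psmb10 to Psmb7 behaved differently at day 3. It was 5.18 ± 0.28 in healthy mice, fell outside that range at 1.75 and 3.02 in the day 1 mice, and was 14.04 and 15.45 in day 3 mice 1 and 2 but 4.29 and 4.49 in mice 3 and 4. With 2 mice against 4, a two-sided exact permutation test cannot give a p below 0.133, and this was the p of all 3 ratios at day 1. At day 3 the exact permutation p was 0.0286 for Psmb9 to Psmb6, the smallest that 4 against 4 mice allow, 0.0571 for Psmb8 to Psmb5 and 0.429 for Psmb10 to Psmb7. After adjustment over the 9 tests of this kind (Benjamini-Hochberg), the smallest exact permutation p was 0.24. Per kb, Psmb10 had the highest level of the 3 immunoproteasome subunits in healthy LSECs (86.9 CPM per kb, against 44.1 for Psmb8 and 22.7 for Psmb9). Psmb6 (121.5 CPM per kb) exceeded Psmb5 (69.1) and Psmb7 (16.7). The rank of Psmb10 over Psmb8 rests on the exonic lengths used (1705 and 3381 bases), since their healthy means were 148.2 and 149.2 CPM. Which transcripts were expressed was not measured, so levels per kb and the absolute size of the ratios between genes are uncertain.

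**Figure D4:**
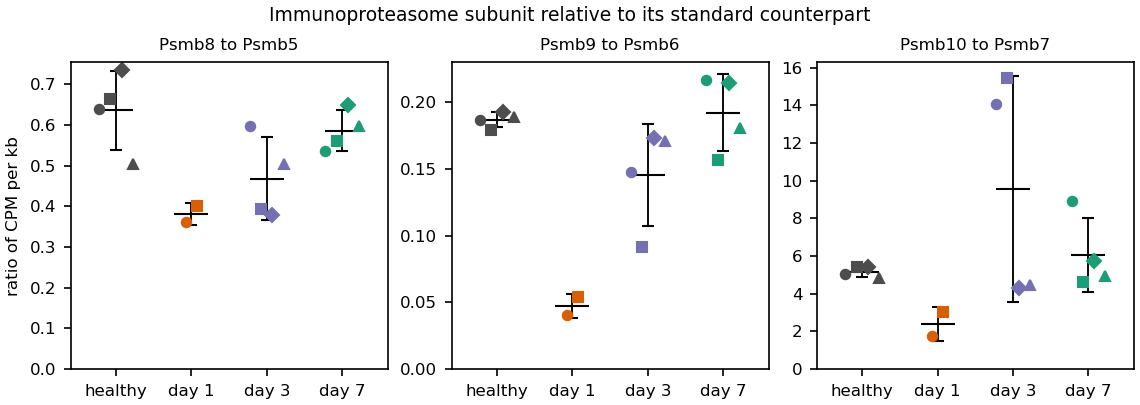
Ratio of CPM per kb of each immunoproteasome subunit to its standard counterpart (y axis) in each mouse by group (x axis), with mean and SD as bars and whiskers. In all 3 panels the 2 day 1 mice lie below the 4 healthy mice, and for Psmb10 to Psmb7 day 3 mice 1 and 2 lie at 14.04 and 15.45.

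Among the alpha subunits, which form the gate of the core, all 7 were above the healthy range in both day 1 mice and below it in all 4 day 7 mice. Psma5 was at 165, 132, 150.5 and 121 CPM in the healthy mice, 237 and 220.2 at day 1, 244, 237, 132 and 77.9 at day 3, and 103, 84.9, 76.5 and 81.3 at day 7. Psma2 was at 337, 271, 278 and 208 CPM in the healthy mice, 394 and 357 at day 1, 416, 349, 229 and 138 at day 3, and 162, 153, 148 and 148 at day 7. Both fell from day 1 to day 7 in edgeR (log2 fold change -1.40, SE 0.34, adjusted p = 0.0247 for Psma5, and log2 fold change -1.30, SE 0.32, adjusted p = 0.0276 for Psma2), as did Psma3 and Psma6, while Psma1, Psma4 and Psma7 did not pass the test. For Psma5 and Psma2 the call was lost without either day 1 mouse or without day 7 mouse 2, 3 or 4 (adjusted p from 0.0543 to 0.233). For Psma5, 35.2% of its 75-base stretches also occur in pseudogenes.

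Of the beta subunits without an active site, Psmb3 was at 226, 184, 195 and 167 CPM in the healthy mice, 302 and 266 at day 1, 344, 295, 201 and 104 at day 3, and 139.9, 123, 121 and 129.5 at day 7. It fell from day 1 to day 7 (log2 fold change -1.15, SE 0.33, adjusted p = 0.0486, edgeR quasi-likelihood test), with an adjusted p close to the threshold that exceeded it when any 1 of 11 of the 14 mice was left out (up to 0.339). Psmb2 was at 286, 189, 203 and 199.6 CPM in the healthy mice, 262 and 261 at day 1, 378, 313, 216 and 126 at day 3, and 167, 118, 124 and 135 at day 7. Healthy mouse 1 was higher than both day 1 mice, so the groups overlapped at day 1, and the day 7 mice were below all healthy mice. Psmb1 overlapped at day 1 as well, with 256 and 247 CPM against 171 to 253 CPM in healthy mice, whereas Psmb4 did not, with 272 and 284 CPM against 153 to 229 CPM.

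The 19S cap held most of the calls from day 1 to day 7, with 15 of its 17 subunits. All 6 ATPases, which unfold the substrate, were above the healthy range in both day 1 mice and below it in all day 7 mice. Psmc4 was at 132, 121, 127 and 117 CPM in the healthy mice, 189.5 and 200.4 at day 1, 159, 158, 144 and 102 at day 3, and 103, 83, 69.2 and 84.5 at day 7. It fell from day 1 to day 7 (log2 fold change -1.20, SE 0.20, adjusted p = 0.0039) and from day 3 to day 7 (log2 fold change -0.73, SE 0.17, adjusted p = 0.0481) in edgeR, while its difference between healthy and day 7 did not pass (log2 fold change -0.55, SE 0.17, adjusted p = 0.0934). Psmc1 was at 170.3, 152, 159 and 139 CPM in the healthy mice, 246 and 234 at day 1, 199, 179.5, 151 and 122 at day 3, and 133, 108, 87.1 and 98.8 at day 7. It fell from day 1 to day 7 as well (log2 fold change -1.17, SE 0.21, adjusted p = 0.00612, edgeR quasi-likelihood test), and the calls of both genes from day 1 to day 7 were lost when either day 1 mouse was left out (adjusted p from 0.0597 to 0.112).

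Psmd14 (Rpn11), the metalloprotease that cuts ubiquitin from the substrate, was at 106, 91.8, 98.3 and 78.1 CPM in the healthy mice, 187 and 168 at day 1, 168, 131, 102 and 71.4 at day 3, and 69.1, 55.5, 51.5 and 48.2 at day 7. Its day 1 level was 1.90-fold that of healthy mice, the largest fold of the 45 genes, though the edgeR test was not passed (log2 fold change 0.93, SE 0.27, adjusted p = 0.0759), whereas DESeq2 (adjusted p = 0.0265) and limma (adjusted p = 0.000884) did pass. It fell to 0.315-fold from day 1 to day 7 (log2 fold change -1.67, SE 0.27, adjusted p = 0.00303, edgeR quasi-likelihood test), a call lost only without day 1 mouse 1 (adjusted p = 0.061) of all single samples. From day 3 to day 7 it fell too (log2 fold change -1.07, SE 0.23, adjusted p = 0.0344, edgeR). The difference between healthy and day 7 had an adjusted p of 0.0913, and the day 7 mice did not overlap the healthy mice.

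Psmd1 (Rpn2), the large scaffold of the base, was at 143, 162, 175 and 132 CPM in the healthy mice, 249 and 231 at day 1, 153, 141, 179 and 171 at day 3, and 92.4, 101, 107 and 113 at day 7. Its 4 day 3 mice were near the healthy mice, unlike those of the core subunits, and its day 7 mice were all lower. It fell from day 1 to day 7 (log2 fold change -1.21, SE 0.17, adjusted p = 0.0016), lost only without day 1 mouse 1 (adjusted p = 0.0711), and from day 3 to day 7 (log2 fold change -0.64, SE 0.14, adjusted p = 0.0429) in edgeR. The higher level at day 1 (log2 fold change 0.65, SE 0.17, adjusted p = 0.0525) and the lower level at day 7 (log2 fold change -0.56, SE 0.14, adjusted p = 0.0503) against healthy LSECs stood just beyond the threshold. The calls of Psmd1 and Psmc4 from day 3 to day 7 were lost without any 1 of 14 and 13 samples, with adjusted p up to 0.257 and 0.269, and that of Psmd14 without any 1 of 12 samples (adjusted p up to 0.177).

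Among the other cap subunits, Psmd2 and Psmd3 stood out at day 3 (chosen after their values were seen). Psmd2 (Rpn1) was at 84.1 and 76.0 CPM in day 3 mice 1 and 2, below the healthy range of 98.7 to 133 CPM, and at 153 and 186 CPM in mice 3 and 4, above it. Psmd3 (Rpn3) was at 118 and 99.0 CPM in mice 1 and 2 and at 184 and 226 CPM in mice 3 and 4, with 161 to 191 CPM in healthy mice. For both genes mice 1 and 2 were thus lower than mice 3 and 4, whereas the summed core subunits were higher in mice 1 and 2. Psmd8 (Rpn12) and Psmd2 were the cap subunits not called from day 1 to day 7.

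**Figure D5:**
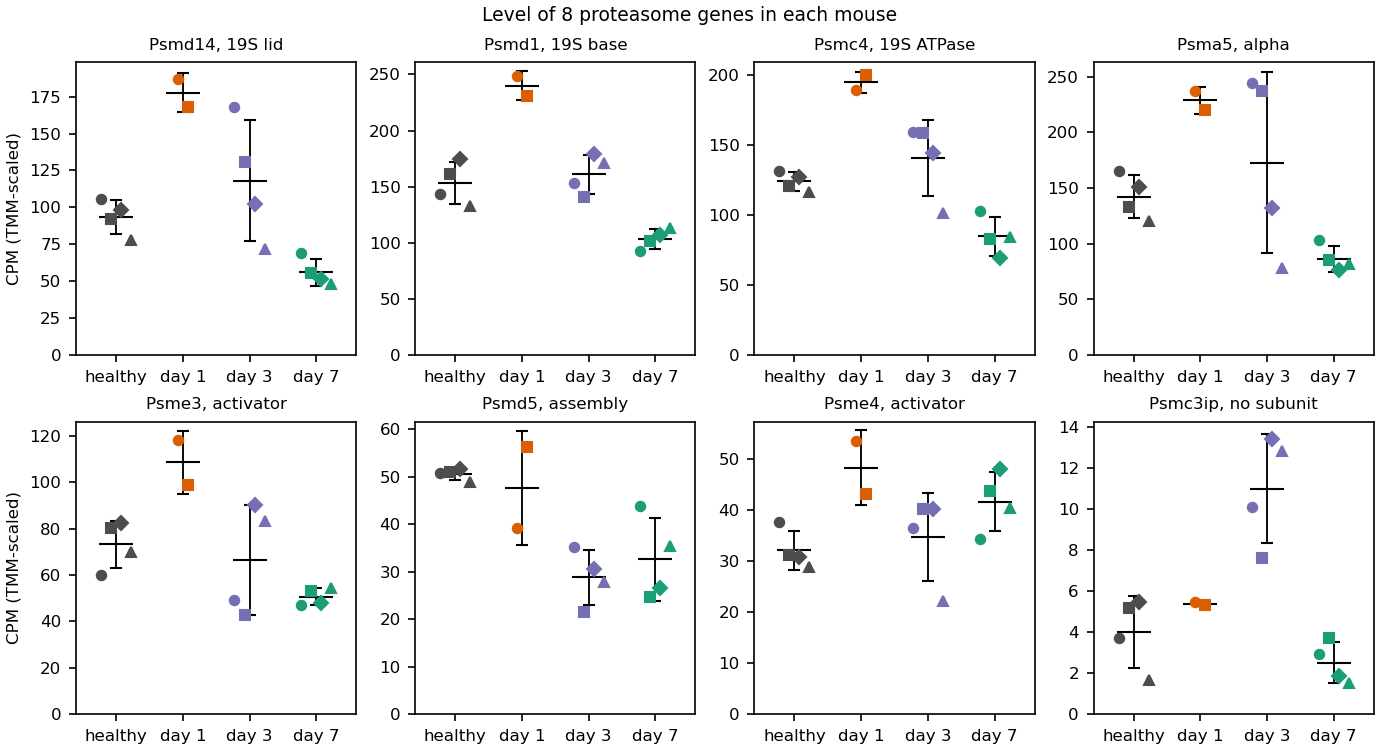
CPM (y axis, TMM-scaled) of 8 genes in each mouse by group (x axis), with symbols for mice 1 to 4 as circle, square, diamond and triangle and with mean and SD as bars and whiskers. Psmd14, Psmd1, Psmc4 and Psma5 were highest in the day 1 mice or in day 3 mice 1 and 2 and lowest at day 7, Psmd5 was low at day 3, and Psme4 at day 7 was at 34.3 to 48.1 CPM.

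The activators did not move as a group. Psme1 and Psme2, which form the interferon-inducible PA28 alpha/beta ring, kept to the healthy range at day 1. Psme1 was at 168, 156, 173 and 118 CPM in the healthy mice, 153 and 164 at day 1, 278, 199, 135 and 95.7 at day 3, and 108, 109, 119 and 108 at day 7. Psme2 was at 223, 187, 207 and 149.6 CPM in the healthy mice, 186 and 206 at day 1, 380.1, 288, 158 and 91 at day 3, and 122, 119, 114 and 118 at day 7. Day 3 mouse 1 exceeded every other mouse for both genes. All 4 day 7 mice were below all healthy mice for Psme2, whereas for Psme1 day 7 mouse 3 lay just above the lowest healthy mouse. Psme2 shares 22.9% of its 75-base stretches with Psme2b, which was at 3.80 to 9.57 CPM over all mice, so the assignment of reads between this pair is uncertain.

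Psme3 and Psme4 encode nuclear activators (PA28 gamma and PA200). Psme3 was at 60.1, 80.4, 82.2 and 70.1 CPM in the healthy mice, 118 and 98.9 at day 1, 49.3, 42.8, 90.2 and 83.3 at day 3, and 47.1, 53.3, 47.9 and 54.5 at day 7. Its day 1 mice were above all healthy mice, it was low in day 3 mice 1 and 2 like Psmb7, Psmd2 and Psmd3, and it fell from day 1 to day 7 (log2 fold change -1.10, SE 0.27, adjusted p = 0.0251, edgeR quasi-likelihood test). That call was lost without healthy mouse 4, either day 1 mouse or any day 7 mouse (adjusted p from 0.0524 to 0.385). Psme4 was at 37.5, 31.2, 30.7 and 28.9 CPM in the healthy mice, 53.5 and 43 at day 1, 36.4, 40.1, 40.1 and 22.1 at day 3, and 34.3, 43.6, 48.1 and 40.3 at day 7. Its day 1 mice were above the healthy range, and in contrast to most subunits 3 of the 4 day 7 mice were too, although no edgeR comparison of it passed.

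The 19S assembly chaperones Psmd5, Psmd9 and Psmd10 attach to ATPases before the cap is complete and are absent from the finished particle. At day 1 they showed no common difference (median log2 fold change -0.04). Psmd5 was at 50.8, 51, 51.7 and 48.9 CPM in the healthy mice, 39.2 and 56.2 at day 1, 35.3, 21.6, 30.7 and 27.8 at day 3, and 43.8, 24.7, 26.5 and 35.4 at day 7. It fell from healthy to day 3 (log2 fold change -0.81, SE 0.21, adjusted p = 0.0356, edgeR quasi-likelihood test), with all 4 day 3 mice below all 4 healthy mice. For all core subunits but Psmb7, by contrast, the day 3 mice lay both above and below the healthy range. The call of Psmd5 depended on single samples, as given above.

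Psmc3ip was at 3.71, 5.19, 5.44 and 1.66 CPM in the healthy mice, 5.45 and 5.3 at day 1, 10.1, 7.6, 13.4 and 12.8 at day 3, and 2.94, 3.72, 1.87 and 1.51 at day 7. It rose from healthy to day 3 (log2 fold change 1.46, SE 0.38, adjusted p = 0.0367) and fell from day 3 to day 7 (log2 fold change -2.13, SE 0.39, adjusted p = 0.0196) in edgeR, and all 4 day 3 mice were above all other mice. The call of the rise depended on single samples, as given above. The fall was lost without either day 1 mouse, day 3 mouse 1 or 3, or day 7 mouse 1, 3 or 4 (adjusted p from 0.0642 to 0.129). Its exons share 21.2% of their bases with Mlx on the opposite strand. Of the tissue-restricted core subunits, Psma8, an alpha subunit of germ cells, was at 8.39, 9.9, 5.01 and 4.81 CPM in the healthy mice, 9.52 and 15.2 at day 1, 8.6, 8.82, 6.45 and 7.77 at day 3, and 5.41, 3.8, 2.58 and 2.83 at day 7. It fell from day 1 to day 7 (log2 fold change -1.75, SE 0.37, adjusted p = 0.0124, edgeR quasi-likelihood test), lost without day 1 mouse 1 (adjusted p = 0.0744) or mouse 2 (adjusted p = 0.204), and per kb its healthy level of 2.82 CPM was far below the 78.1 CPM of Psma7, the subunit it replaces. Psmb11, the beta subunit of the thymus, stayed at or below 0.647 CPM in every mouse and had no count in healthy mouse 4, where 3 counts would give 0.0343 CPM.

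Genes that work with the proteasome were compared in the same way. Of 8 other proteins bound to the particle, 2 rose at day 1 in edgeR (2.42% of all tested genes were called higher). Adrm1 (Rpn13), a ubiquitin receptor of the cap, went from 104 ± 3.1 CPM in healthy mice (SD, n = 4) to 167 ± 10.0 CPM at day 1 (SD, n = 2) and 72.9 ± 6.9 CPM at day 7, so that it rose at day 1 (log2 fold change 0.68, SE 0.15, adjusted p = 0.0179) and fell at day 7 against healthy (log2 fold change -0.51, SE 0.12, adjusted p = 0.0396, edgeR). Uchl5, the deubiquitinase that Adrm1 recruits, rose at day 1 as well (log2 fold change 0.82, SE 0.21, adjusted p = 0.0456). From day 1 to day 7 Adrm1, Uchl5, Txnl1 and Usp14 fell in edgeR (4.40% of all tested genes were called lower).

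Among 10 genes of MHC class I presentation, which takes up peptides from the immunoproteasome, Irf1 fell at day 1 (log2 fold change -2.12, SE 0.42, adjusted p = 0.0112, edgeR), from 529 ± 99.1 CPM (SD, n = 4) to 122 ± 18.6 CPM (SD, n = 2). At day 1 against healthy, 1.64% of all tested genes were called lower. Irf1 is known as an activator of immunoproteasome genes. In 7 of the 10, Irf1 among them, both day 1 mice were below all healthy mice (17.9% of all tested genes). The peptide transporter genes Tap1 and Tap2 were also among the 7 but did not pass the test. At day 3 against healthy H2-K1, H2-D1 and Tap2 fell in edgeR (2.58% of all tested genes were called lower). Of the 5 regulators of proteasome genes, only Ngly1, which activates Nrf1, fell, at day 3 (log2 fold change -0.80, SE 0.15, adjusted p = 0.00909, edgeR), where 2.58% of all tested genes were called lower. Nfe2l1 and Nfe2l2, which encode Nrf1 and Nrf2, passed in no comparison.

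None of the 5 core assembly chaperones passed in any comparison, and of 13 genes of ubiquitin supply and delivery only Ufd1 did, from day 1 to day 7 (log2 fold change -1.32, SE 0.22, adjusted p = 0.00329, edgeR). In that comparison 4.40% of all tested genes were called lower. Cct2, a subunit of the chaperonin TRiC, rose at day 1 (log2 fold change 0.97, adjusted p = 0.0139, edgeR), where 2.42% of all tested genes were called higher. Cops2 and Gps1 of the COP9 signalosome fell at day 7 against healthy (0.992% of all tested genes were called lower). All 7 listed subunits of TRiC, which folds actin and tubulin, were called lower from day 1 to day 7 (4.40% of all tested genes were). So were 4 of 14 subunits of the translation factor eIF3 and 3 of 10 of the signalosome, which resembles the lid of the cap. Their median log2 fold changes from day 1 to day 7 were -1.08, -0.58 and -0.60, against -1.07 for the proteasome genes. At day 1 the medians were 0.66, 0.33 and 0.07, and at day 7 against healthy -0.42, -0.26 and -0.55.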

How the data were processed

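RNA of LSECs from 14 mice was measured by RNA-seq. According to its methods, the study trimmed reads, checked their quality with FastQC and AfterQC, and used STAR for mapping (GRCm38.p6) and StringTie, and the authors deposited raw whole-number read counts per Ensembl gene without normalization. Annotation release, tool versions and use of strand are not given in the sources used here, and no column was left unused.

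Genes were filtered with filterByExpr (minimum count 10, total 15, by group), which left 26626, scaled with TMM and tested with edgeR 4.0.16 (R 4.3.3) by quasi-likelihood, with a mean for each of the 4 groups and all 14 samples in the fit, adjusting by Benjamini-Hochberg across every gene tested and a threshold of 0.05. SE was taken as the size of the log2 fold change over the root of F. CPM uses TMM-scaled library size, and CPM per kb the union of GENCODE vM21 exons, from which overlaps were taken as well. Sharing of sequence was counted over 75-base stretches of transcripts. Ratios were tested by two-sided exact permutation (scipy 1.17.1).

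The samples are labelled as replicates only, and if mice were pooled or shared, p-values measure just the spread between samples. The alternatives tried were limma 3.58.1 (voom, sample quality weights), DESeq2 1.42.0, RLE factors, library size only, no filter or at least 10 counts in every sample, models of the 2 groups compared, a replicate block and leaving out each sample. After seeing the data, fits without day 3 mice 1 and 2, 3 and 4, or all were added. The steps were tested on simulated data with changes at day 7 only, larger than most of those reported here. That test does not cover smaller changes, the small day 1 group or the spread at day 3. Intervals and floors cover counting error only. Values by mouse are given for the active-site subunits and their counterparts, the activators, the 2 genes with the smallest F-test p in each other class of subunits, members called against the direction of most calls, and members that are low or no subunit. Members follow the symbol rule, but this set of genes and the gene lists were chosen with earlier results of these data known.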

Additional observations from a re-analysis of the deposited data

Results flagged for a closer look

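The change from healthy LSECs differed between days in the edgeR test of that difference for 23 proteasome genes between day 7 and day 1, for 4 between day 7 and day 3 and for 1 between day 3 and day 1. These tests share no healthy mouse in the difference itself, since it reduces to a comparison of the days with each other. The healthy mice still enter the filter, scaling and spread of the fit.

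In groups of 4 mice, 2 values stood far from the other 3. Psme1 in day 7 mouse 3 was at 119.2 CPM against 108 to 109 CPM in the other day 7 mice, and Psmb2 in healthy mouse 1 was at 286.3 CPM against 189 to 203 CPM in the other healthy mice. Over the 66 groups checked, chance gives such a value in about 1 of 20.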

How the results depend on the processing

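The number of calls moved with the fit, for the 45 genes and for all genes, whose share called in either direction stands in brackets. At day 1 against healthy 1 gene was called (4.06%). This was 5 with DESeq2 (10.7%), 24 with limma (16.2%), 3 with at least 10 counts in every sample (8.11%), 13 with the 2 groups alone (10.2%), 16 without day 3 mice 3 and 4 (10.4%), 4 without day 3 mice 1 and 2 (7.85%), 15 without day 3 (10.5%), and 0 to 5 without each single sample (0.555% to 6.98%). At day 3 against healthy, where 2 were called (7.19%), limma gave 22 (27.3%), library size only (6.04%), no filter (3.47%), the 2 groups alone (5.14%), the replicate block (5.20%) and leaving out day 3 mice 1 and 2 (9.72%) gave 1 each, leaving out day 3 mice 3 and 4 gave 19 (23.8%), and single samples gave 0 to 2 (3.56% to 12.5%). At day 7 against healthy, where 0 were called (3.18%), DESeq2 gave 7 (10.2%), limma 40 (26.5%), the 2 groups alone 29 (14.6%), leaving out day 3 mice 3 and 4 33 (15.4%), mice 1 and 2 15 (9.28%), all of day 3 33 (15.6%), and single samples 0 to 14 (0.726% to 8.19%). From day 1 to day 3, where 1 was called (2.54%), DESeq2 gave 4 (9.04%), limma 11 (12.6%), no filter 0 (1.18%), at least 10 counts in every sample 2 (5.12%), the 2 groups alone 0 (0.762%), leaving out day 3 mice 3 and 4 8 (10.6%), mice 1 and 2 14 (7.74%), and single samples 0 to 4 (0.166% to 3.52%). From day 1 to day 7, where 23 were called (8.04%), limma gave 39 (28.6%), the 2 groups alone 35 (19%), the replicate block 15 (4.07%), leaving out day 3 mice 3 and 4 36 (19.6%), all of day 3 37 (20.3%), and single samples 0 to 33 (0.494% to 13.7%). From day 3 to day 7, where 4 were called (1.77%), DESeq2 gave 18 (6.70%), limma 37 (22.5%), RLE factors (1.46%), library size only (1.08%), at least 10 counts in every sample (3.77%) and the replicate block (0.916%) 2 each, no filter 1 (0.352%), the 2 groups alone 0 (0.00451%), leaving out day 3 mice 3 and 4 33 (23.3%), and single samples 0 to 29 (0.0984% to 6.25%). The cause was not tested.

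The median log2 fold change moved to 0.34 with the replicate block and to 0.39 to 0.57 without single samples at day 1 against healthy. Without day 3 mice 1 and 2 it was -0.37 at day 3 against healthy (sign changed), -0.71 from day 1 to day 3 and -0.20 from day 3 to day 7, and from day 1 to day 7 it was -0.88 with the replicate block. The replicate number did not pair the mice: the 18 same-numbered pairs had correlations of -0.232 to 0.0962. Precision is limited less by depth than by the 2 mice at day 1 and the spread at day 3, since apart from Psmb11, Psma8, Psmc3ip and Psme2b every gene had at least 877 counts in every sample.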
